A study of Mus musculus with 12 samples.

Results

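Imprinted genes are expressed mainly from the allele inherited from the mother or from the father, and they lie in clusters that share a methylated control region. In each cluster that region carries DNA methylation on the allele of 1 parent, and it is held through early development by the zinc finger protein ZFP57 with TRIM28 and DNA methyltransferase 1. Many of the genes set fetal and placental growth, and their dosage is known to drift in cultured embryonic stem cells, so their total RNA was described here domain by domain. The RNA libraries do not separate the parental alleles, and each level given is the sum over both.

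The set held 42 imprinted genes, chosen by name from known imprinted domains and not by their values. The table listed 35 of them under their own symbol, and all 35 passed the filter on low counts and were tested. Rian and Nespas had rows under no symbol and under the symbol Gnasas1, were recognised by their Ensembl identifiers, and are described beside the 35 without entering the counts. Rtl1, Airn, Nnat, Plagl1 and Peg13, the other 5, were not analysed here. Of the 42 genes, 16 lie on chromosome 7.

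The cells were an embryonic stem cell culture from mice, of 129S6/SvEvTac background, kept on gelatin in serum with LIF. By 1 growth protocol for the whole series, they carried a reporter named GFP_5xT71BS and a stable FLAG-Cas9 transfection. Titles and an overexpression tag gave 4 groups of 3 libraries: Cas9 control, Cas9 Trim71-/-, Tnrc6a control and Tnrc6a Trim71-/-. Trim71 is an RNA-binding protein that represses its target mRNAs, while Tnrc6a binds Argonaute proteins and carries out microRNA silencing. The series title asks whether separate silencing routes meet on Tnrc6 proteins. Replicates were wells, and the labels give neither the number of clones behind a group nor separate derivations. The p values thus measure the spread between wells, which may be technical. Each genotype or Tnrc6a effect below is a difference between groups, from which differences between clones or lines cannot be told apart.

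The free-text input lines named other cells than the titles for 9 libraries. They gave HA-AVI-Tnrc6a for the Cas9 Trim71-/- libraries, HA-AVI-Tnrc6a with Ago2-/- for the Tnrc6a control libraries, and HA-AVI-Tnrc6a with Upf1-/- for the Tnrc6a Trim71-/- libraries. Tnrc6a RNA followed the tag, at 132 ± 1.31 and 145 ± 9.79 CPM (reads of a gene scaled by TMM-adjusted library size, mean ± SD, n = 3) in the Cas9 control and Cas9 Trim71-/- groups, against 3317 ± 119.6 and 3622 ± 126 CPM in the Tnrc6a control and Tnrc6a Trim71-/- groups. Trim71 RNA stood at 306 ± 14.2, 275 ± 14.2, 264 ± 11.9 and 240.4 ± 9.13 CPM in the same order, so its gene-level count did not check the knockout label. Ago2 stood at 279.6 ± 37.4 CPM in the Tnrc6a control libraries and 332 ± 22.5 CPM in the Cas9 control libraries, which checks no deletion either. Total counts ran from 20758151 to 31552915 per library.

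Markers of other cell types moved with the groups and are given here once for the sections that follow. The summed level of 14 endoderm markers ran from 836 to 865 CPM in the Cas9 control libraries and from 330.5 to 334 CPM in the Cas9 Trim71-/- libraries. It ran from 1626 to 1774 CPM in the Tnrc6a control libraries and from 529 to 546 CPM in the Tnrc6a Trim71-/- libraries. Afp, Ttr and Apoa1 of that list were not analysed here. The sum of 15 markers of 2-cell-like cells spanned 40.7 to 42.9, 3.23 to 4.73, 866 to 913 and 307 to 327 CPM in the same order of groups, and that of 7 trophoblast markers spanned 53.5 to 55.1, 49.2 to 52.6, 251 to 286 and 146 to 149 CPM. The 9 stem cell markers, Pou5f1, Sox2 and Nanog among them, were all present, with sums of 6004 to 6042, 6984 to 7087, 3765 to 3791 and 5449 to 5542 CPM. The sums of 5 fibroblast markers were 223 to 233, 216 to 227, 167 to 175 and 137 to 144 CPM, and those of 6 neural markers 138 to 139.6, 159.9 to 175, 149.8 to 153 and 193 to 199 CPM. A sum need not follow most of its markers. By the edgeR test used below, 3 fibroblast markers were higher and 1 lower with Tnrc6a in control cells, beside 30.4% and 33.1% of all genes. In Trim71-/- cells the split was 4 and 1, beside 32% and 30.9%. Of the neural markers, 1 was higher and 2 were lower with Tnrc6a in control cells, although their sum rose. The lists named 11 fibroblast, 9 neural and 8 trophoblast markers and 16 of 2-cell-like cells, and those beyond the numbers summed were not analysed here. No marker among those summed was at 0 counts throughout a group. The part of these cell states in the results below was not tested, and in bulk RNA fewer cells of a type and less RNA per cell cannot be told apart.

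Imprinted genes spanned more than 3 orders of magnitude per length. In the Cas9 control libraries, 25 of the 35 genes reached 1 RPKM (reads scaled by gene length and library size, as deposited) and 10 reached 10 RPKM, with a median of 2.98 RPKM against 3.86 RPKM over all tested genes. The highest levels were those of Snrpn at 88.9 ± 1.72 RPKM, the amino acid transporter gene Slc38a4 at 49.4 ± 0.876 RPKM and the adaptor gene Grb10 at 48.8 ± 1.20 RPKM. Next came Peg10 at 36.3 ± 2.199 RPKM, while Slc38a4 and Grb10 did not differ beyond their spread. At the other end stood the long antisense RNA Kcnq1ot1 at 0.0218 ± 0.00444 RPKM, Usp29 at 0.0358 ± 0.00369 RPKM, Zim1 at 0.0575 ± 0.0206 RPKM and Zfp264 at 0.103 ± 0.0593 RPKM. The deposited length of Kcnq1ot1 is 93092 bases, so its low value per length still rests on 43 to 144 reads in every library.

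**Figure D1:**
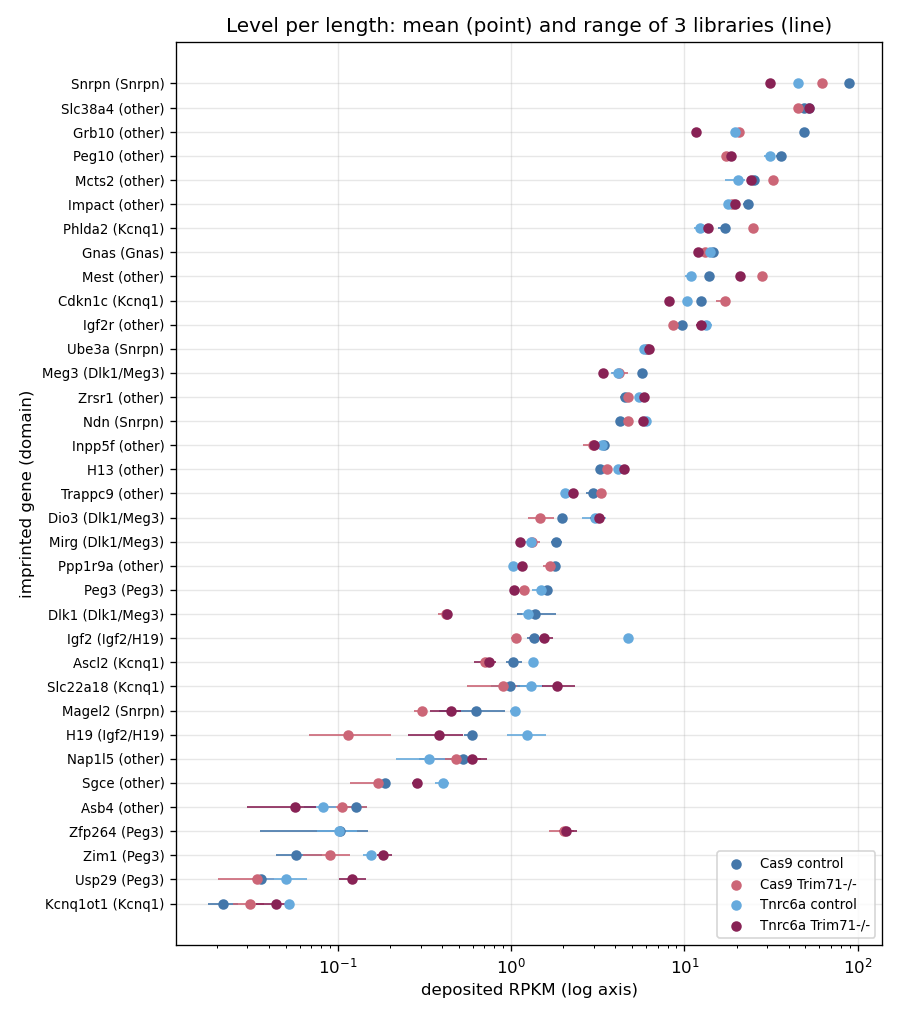
Levels of the 35 imprinted genes per length, as deposited RPKM on a log axis. Each point is the mean of 3 libraries of a group and each line their range. Snrpn, Slc38a4 and Grb10 lie highest in the Cas9 control libraries, Kcnq1ot1 lies lowest, and Zfp264 shows the widest gap between genotypes.

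Most imprinted genes differed between genotypes, and more of them were lower than higher in Trim71-/- cells. With Cas9, 22 of the 35 genes differed between Trim71-/- and control at an adjusted p under 0.05 in edgeR's quasi-likelihood test, 6 higher and 16 lower, where 36.1% of all 20486 tested genes were called (17.1% higher and 19.1% lower). The median log2 fold change of the 35 was -0.15, against -0.01 over all tested genes. With Tnrc6a, 19 of the 35 differed, 6 higher and 13 lower, against 39.1% called among all genes (20% higher and 19% lower), with medians of -0.10 and 0.00. A 2-fold minimum left few of them: 2 higher and 5 lower with Cas9, where 1.81% and 3.45% of all genes were, and 2 higher and 4 lower with Tnrc6a, where 2.3% and 3.35% were. The knockout comparisons share no library, but they come from the same fit, and the labels do not tell whether their Trim71-/- cells are separate clones. The genes called lower in both were Dlk1, Gnas, Grb10, H19, Igf2, Magel2, Meg3, Peg10, Peg3 and Snrpn, 10 in number, and those called higher in both were Mcts2, Mest and Zfp264. The share of all genes called alike in both is not given here, so the overlap is only a list. Cdkn1c and Impact were called in opposite directions.

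Imprinted genes differed between Tnrc6a and Cas9 libraries in both directions, at a rate close to that of all genes. In control cells 23 of the 35 (65.7%) differed between Tnrc6a and Cas9 libraries, 11 higher and 12 lower, where 63.5% of all tested genes were called (30.4% higher and 33.1% lower). In Trim71-/- cells 25 of the 35 (71.4%) differed, 13 higher and 12 lower, against 62.9% of all genes (32% higher and 30.9% lower). At a 2-fold minimum 5 were higher and 1 lower in control cells, against 11% and 3.21% of all genes, and 4 were higher and 2 lower in Trim71-/- cells, against 11.5% and 2.87%. The comparisons share no library but come from the same fit, and no gene of the 35 was called in opposite directions in them. They called higher in common Dio3, H13, H19, Igf2, Igf2r, Kcnq1ot1, Ndn, Sgce, Zim1 and Zrsr1. They called lower in common Cdkn1c, Grb10, Mcts2, Meg3, Mest, Mirg, Phlda2, Ppp1r9a, Snrpn and Trappc9. The share of all genes called alike in both is not given here. Since 63.5% and 62.9% of all genes were called in each, these lists are not read as a trait of imprinted genes. The genotype effect itself differed between Tnrc6a and Cas9 cells for 7 of the 35 (interaction term, same test), 3 with a positive and 4 with a negative term, where 6.93% of all genes were called (4.68% positive and 2.25% negative). Igf2 alone of the 7 passed 2-fold, with a negative term, against 0.61% of all genes with positive and 0.264% with negative terms of that size. Without Tnrc6a control replicate 3, only 2 of the negative terms were still called.

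**Figure D2:**
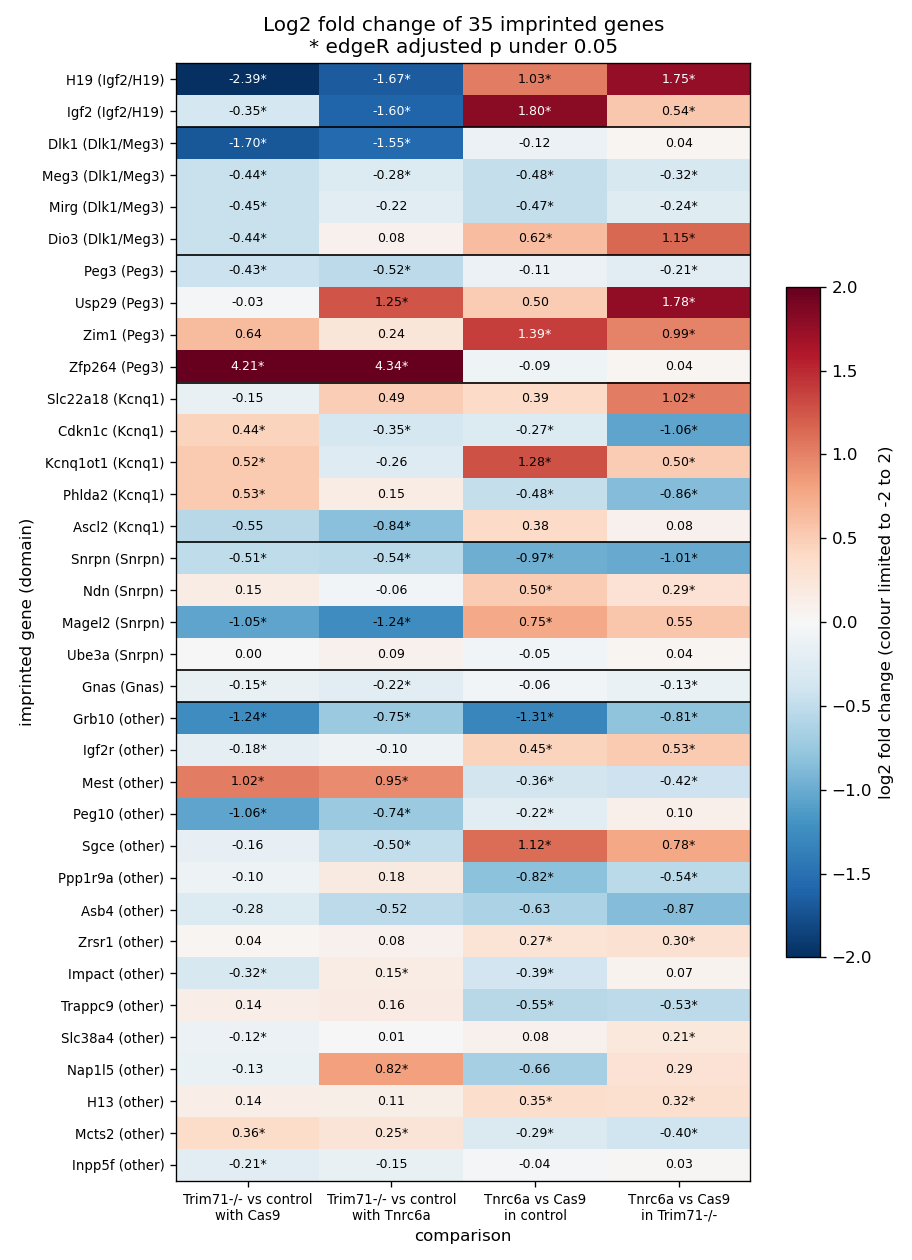
Log2 fold changes of the 35 imprinted genes in the 4 comparisons between pairs of groups, ordered by domain. Red is higher and blue lower in the group named first, the printed number is the log2 fold change, and an asterisk marks an edgeR adjusted p under 0.05. Zfp264 shows 4.21 and 4.34 for genotype beside values near 0 for Tnrc6a.

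H19 and Igf2, on distal chromosome 7, were both lower in Trim71-/- cells and both higher with Tnrc6a. H19 is a maternally expressed noncoding RNA and Igf2 a paternally expressed fetal growth factor gene, and they share enhancers (GRCm38 chr7:142575529-142578143 and chr7:142650766-142666816, both on the minus strand). H19 read 1.54, 1.32 and 1.55 CPM in the Cas9 control wells and 0.168, 0.496 and 0.184 CPM in the Cas9 Trim71-/- wells. Tnrc6a cells held 2.82, 3.92 and 2.32 CPM in control and 1.30, 0.626 and 0.907 CPM in Trim71-/- wells. All Trim71-/- wells lay below all control wells of the same construct, at 4 to 12 reads a library in the Cas9 Trim71-/- group. The log2 fold change (± SE) for genotype was -2.39 ± 0.37 with Cas9 (edgeR adjusted p = 1.13e-06) and -1.67 ± 0.26 with Tnrc6a (adjusted p = 1.01e-06). H19 was higher with Tnrc6a by 1.03 ± 0.25 in control cells (adjusted p = 0.000355) and 1.75 ± 0.39 in Trim71-/- cells (adjusted p = 0.000171).

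Igf2 stood at 7.11, 7.84 and 8.27 CPM in Cas9 control wells and 5.74, 6.12 and 6.45 CPM in Cas9 Trim71-/- wells. It reached 26.3, 27.8 and 26.6 CPM in Tnrc6a control wells, the highest group by far, and returned to 7.25, 9.39 and 10.01 CPM in Tnrc6a Trim71-/- wells. The genotype groups did not overlap under either construct, but they lay much closer together with Cas9. Its genotype log2 fold change was -0.35 ± 0.12 with Cas9 (adjusted p = 0.0153) and -1.60 ± 0.09 with Tnrc6a (adjusted p = 1.05e-18), and the interaction was -1.25 ± 0.15 (adjusted p = 6.92e-08). The Cas9 call was lost without Cas9 control replicate 3 (adjusted p = 0.0813) or without Cas9 Trim71-/- replicate 1 (adjusted p = 0.0739). Igf2 shares 62.8% of its exon bases with the same-strand gene Gm49394, whose level of 7.11 ± 0.600 and 24.8 ± 0.665 CPM in the Cas9 and Tnrc6a control groups tracked it, so counts of the pair are uncertain. The antisense transcript Igf2os fell from 0.661 ± 0.0927 to 0.197 ± 0.122 CPM with genotype under Cas9 (log2 fold change -1.73 ± 0.44, adjusted p = 0.00167) and from 1.64 ± 0.161 to 0.545 ± 0.0974 CPM under Tnrc6a (-1.57 ± 0.31, adjusted p = 5.56e-05). How the counting treated strand is not given in the sources used here, so reads of a gene and its antisense partner cannot be told apart.

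Of 7 tested genes within 200 kb of this pair, 1 was called higher and 4 lower with genotype under Cas9, where 17.1% and 19.1% of all genes were, and 3 higher and 2 lower under Tnrc6a, where 20% and 19% were. Igf2os and Gm49394 are among the 7. The endoderm sum given above is lower in Trim71-/- and higher in Tnrc6a libraries, as H19 and Igf2 were, and its part in their changes was not tested.

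The Dlk1/Meg3 domain on chromosome 12 was lower in Trim71-/- cells with Cas9 in all 4 tested members, and Dlk1 moved furthest. Dlk1, a paternally expressed transmembrane protein gene related to Notch ligands (chr12:109452823-109463336, plus strand), read 6.84, 10.3 and 6.14 CPM in Cas9 control and 2.15, 2.56 and 2.40 CPM in Cas9 Trim71-/- wells. With Tnrc6a it read 6.57, 7.26 and 7.36 CPM in control and 2.38, 2.50 and 2.37 CPM in Trim71-/- wells. Every Trim71-/- well lay at or below 2.56 CPM and every control well above 6 CPM. The log2 fold change was -1.70 ± 0.16 with Cas9 (adjusted p = 9.43e-12) and -1.55 ± 0.16 with Tnrc6a (adjusted p = 4.87e-11), and no difference by Tnrc6a was called in control (-0.12 ± 0.14) or Trim71-/- cells (0.04 ± 0.19).

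The maternally expressed RNAs of the domain shifted less, and together. Meg3 (chr12:109541001-109571726), the noncoding RNA that starts the long maternal transcript and the tested member of highest RPKM in the domain, measured 108, 106 and 97.6 CPM in Cas9 control and 85.6, 73.2 and 69.5 CPM in Cas9 Trim71-/- wells. With Tnrc6a it measured 79.6, 75.8 and 68.1 CPM in control and 61.8, 58.3 and 63.3 CPM in Trim71-/- wells. The lowest control well was above the highest Trim71-/- well under each construct. Meg3 fell with genotype by 0.44 (Cas9) and 0.28 (Tnrc6a) on the log2 scale, and with Tnrc6a by 0.48 in control and 0.32 in Trim71-/- cells (adjusted p = 1.88e-05, 0.00213, 2.23e-06 and 0.000389). Rian, the snoRNA host transcript between Meg3 and Mirg, had group means of 199.6 ± 3.26, 134 ± 6.81, 118 ± 1.89 and 102 ± 1.75 CPM in the order Cas9 control, Cas9 Trim71-/-, Tnrc6a control, Tnrc6a Trim71-/-. Its log2 fold changes were -0.57 ± 0.04 and -0.20 ± 0.04 for genotype and -0.76 ± 0.04 and -0.39 ± 0.04 for Tnrc6a, each with an adjusted p of at most 0.000103. Rian also had a positive interaction term of 0.37 ± 0.06 (adjusted p = 1.66e-05), which does not enter the counts above. Mirg, the microRNA host transcript downstream, fell with genotype under Cas9 (-0.45 ± 0.10, adjusted p = 0.000277), while under Tnrc6a its value of -0.22 ± 0.10 was not called (adjusted p = 0.0852). In Tnrc6a cells Mirg was lower than in Cas9 cells, with log2 fold changes of -0.47 ± 0.10 in control and -0.24 ± 0.10 in Trim71-/- cells. The latter call was marginal (adjusted p = 0.0404) and was lost without any of 4 libraries, at up to 0.264 without Cas9 Trim71-/- replicate 1. It was also lost with DESeq2 (adjusted p = 0.0807), relative log expression factors (0.0549), upper-quartile factors (0.0741), a stricter filter on low counts (0.0609) and the compared groups alone (0.0594).

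Dio3, the deiodinase gene at the far end of the domain that inactivates thyroid hormone, showed the largest difference by Tnrc6a there. It read 3.96, 3.95 and 4.13 CPM in Cas9 control and 2.55, 2.85 and 3.60 CPM in Cas9 Trim71-/- wells, against 7.17, 6.25 and 5.17 CPM in Tnrc6a control and 6.78, 5.82 and 7.10 CPM in Tnrc6a Trim71-/- wells. All Tnrc6a wells were above all Cas9 wells. Dio3 rose with Tnrc6a by 0.62 ± 0.14 in control cells (adjusted p = 0.00019) and 1.15 ± 0.15 in Trim71-/- cells (adjusted p = 7.63e-09). Its genotype fall with Cas9 (-0.44 ± 0.16, adjusted p = 0.0292) did not survive leaving out Cas9 control replicates 1 or 3, or Cas9 Trim71-/- replicates 1 or 2 (0.0549 to 0.174).

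Genes of the Peg3 domain, on proximal chromosome 7, went separate ways, and Zfp264 changed more than any other member. Zfp264 (chr7:6977246-6991087, plus strand), annotated as a transcribed unprocessed pseudogene, read 0.422, 0.101 and 0.348 CPM in Cas9 control and 6.51, 5.91 and 4.66 CPM in Cas9 Trim71-/- wells. With Tnrc6a it read 0.278, 0.216 and 0.365 CPM in control and 6.78, 5.34 and 5.60 CPM in Trim71-/- wells. Control libraries held 2 to 11 reads of it and Trim71-/- libraries 101 to 194, with no overlap. The mean rose 19.6-fold with Cas9 (log2 fold change 4.21 ± 0.26, adjusted p = 1.75e-17) and 20.6-fold with Tnrc6a (4.34 ± 0.25, adjusted p = 1.06e-18). Tnrc6a itself gave -0.09 ± 0.45 in control and 0.04 ± 0.16 in Trim71-/- cells, neither called. An antisense transcript, Zim3, overlaps 6.18% of its exon bases and was not analysed here.

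Its nearest tested neighbour outside the set, the kinase gene Aurkc, lies 4213 bases away and measured 0.452 ± 0.0847 and 0.816 ± 0.0289 CPM in Cas9 control and Trim71-/- cells. Its genotype value with Cas9 was 0.83 ± 0.35 and was not called (adjusted p = 0.0588), and with Tnrc6a it was 0.15 ± 0.29 (adjusted p = 0.729). The zinc finger gene Zfp418, 180243 bases away, was called with Tnrc6a (0.44 ± 0.10, adjusted p = 0.000288) and not with Cas9 (-0.02 ± 0.10, adjusted p = 0.914). Over the 12 libraries, the tested genes whose log2 CPM correlated most with that of Zfp264 were Elmod2, Xlr4a and Itgb1 (Pearson r of 0.989 for each, n = 12, a description in which all genes share the libraries). Xlr4a, an X-linked gene, measured 0.269, 5.25, 0.392 and 4.27 CPM in the order of groups above. Elmod2 and Itgb1 lie on chromosome 8, on which no gene of the imprinted set lies.

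Peg3, a paternally expressed zinc finger gene (chr7:6703892-6730431, minus strand), measured 21.5, 22.1 and 21.9 CPM in Cas9 control and 16.8, 16.2 and 15.7 CPM in Cas9 Trim71-/- wells. Its Tnrc6a wells measured 20.9, 17.9 and 21.8 CPM in control and 13.6, 13.7 and 15.0 CPM in Trim71-/- cells. Trim71-/- wells were below control wells throughout, with log2 fold changes of -0.43 ± 0.08 with Cas9 (adjusted p = 2.98e-05) and -0.52 ± 0.08 with Tnrc6a (adjusted p = 6.03e-07). A small difference by Tnrc6a in Trim71-/- cells (-0.21 ± 0.08, adjusted p = 0.026) was lost without Cas9 Trim71-/- replicate 1, Tnrc6a Trim71-/- replicate 1 or Tnrc6a Trim71-/- replicate 2 (adjusted p = 0.0933, 0.0915 and 0.062), with upper-quartile factors (0.0562) and with DESeq2 (0.0542).

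Usp29, a ubiquitin-specific peptidase gene read from the opposite strand of the same start region, behaved differently from Peg3. It stood at 0.576, 0.708 and 0.657 CPM in Cas9 control, 0.771, 0.703 and 0.369 CPM in Cas9 Trim71-/- and 0.661, 0.863 and 1.19 CPM in Tnrc6a control wells. The Tnrc6a Trim71-/- wells alone were set apart, at 1.84, 2.61 and 2.05 CPM. Its genotype log2 fold change was -0.03 ± 0.35 with Cas9 (adjusted p = 0.959) and 1.25 ± 0.26 with Tnrc6a (adjusted p = 0.000139). In Trim71-/- cells Usp29 was higher with Tnrc6a by 1.78 ± 0.29 (adjusted p = 7.5e-07). The difference between the genotype effects, the interaction, was 1.28 ± 0.44 and missed the threshold (adjusted p = 0.0709), but passed without Tnrc6a control replicate 3 (1.54, adjusted p = 0.037).

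Zim1, the maternally expressed zinc finger gene of the domain, read 0.384, 0.354 and 0.657 CPM in Cas9 control and 0.738, 0.951 and 0.507 CPM in Cas9 Trim71-/- wells. With Tnrc6a it read 1.29, 1.33 and 1.13 CPM in control and 1.66, 1.36 and 1.38 CPM in Trim71-/- wells, all above the Cas9 wells. It rose with Tnrc6a by 1.39 ± 0.32 in control cells (adjusted p = 0.000221) and 0.99 ± 0.29 in Trim71-/- cells (adjusted p = 0.00284), on 7 to 46 reads a library.

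**Figure D3:**
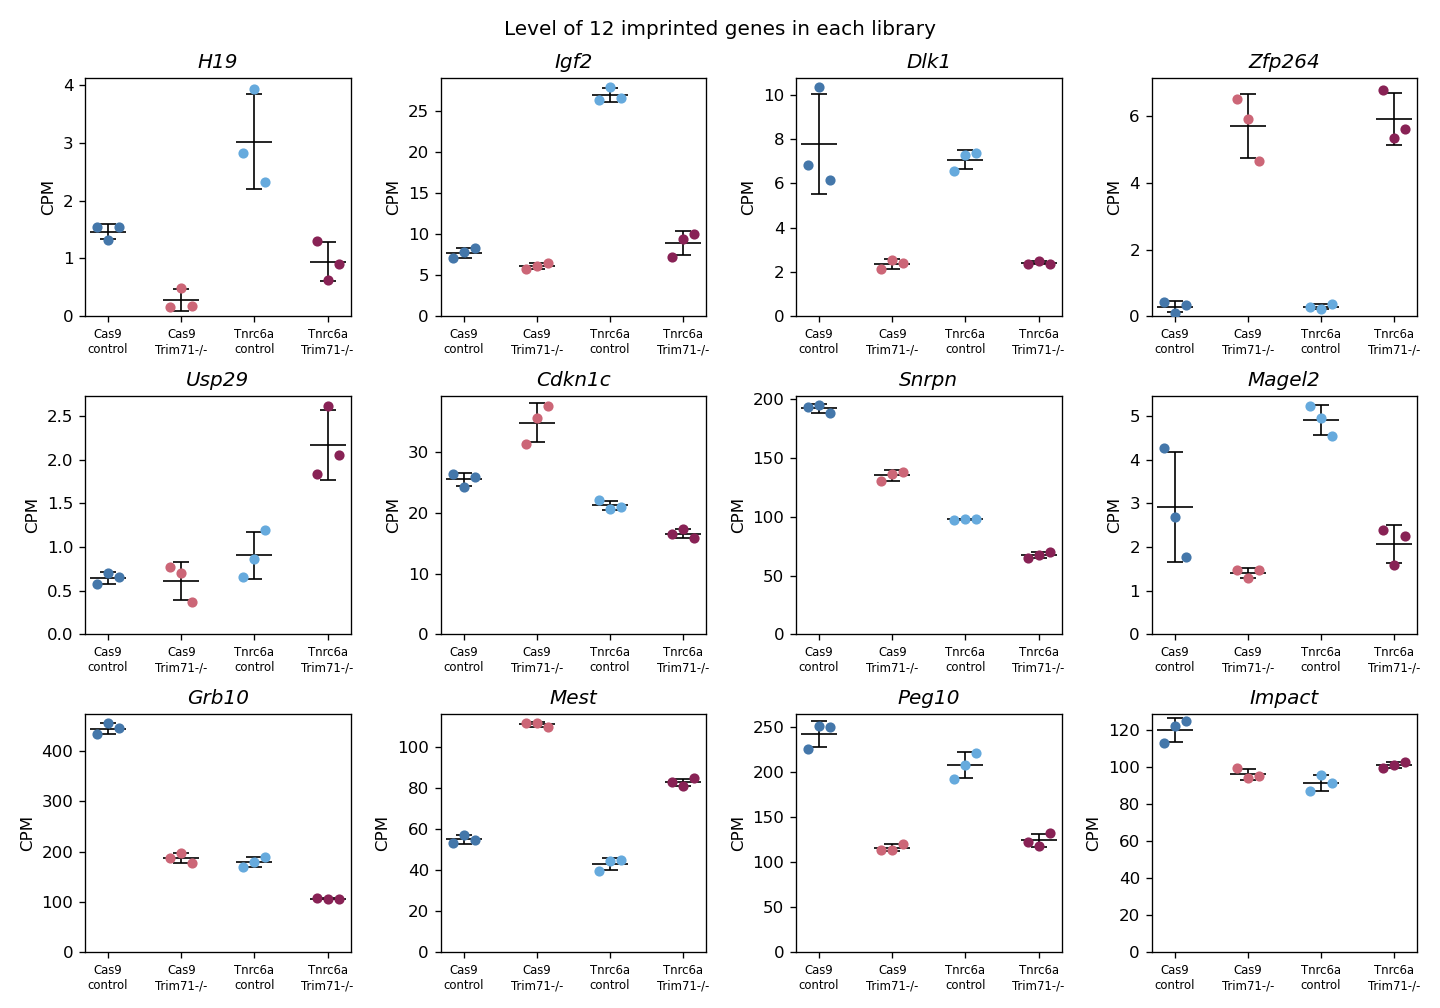
CPM of 12 imprinted genes in each of the 12 libraries, with linear axes from 0. Points are libraries, and bars show the mean ± SD of 3. Zfp264 lies near 0 in control wells and between 4.66 and 6.78 CPM in Trim71-/- wells, and Igf2 stands out only in Tnrc6a control wells.

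The Peg3 and Usp29 start sites are 164 bases apart and their promoter windows share 263 bases, which is why the Peg3 window is shown, beside that of Zim1 from the other parental allele. Each is the reference sequence around a start site from RefSeq (GRCm38.p6), 300 bases long, 5′ to 3′ on the strand of the gene. Where RefSeq gives several start sites, the window with most matches, then most CpG, is shown, and it need not be at the end of the gene given above. Capitals mark GCGGCA, the reverse complement of TGCCGC, which is the hexamer that ZFP57 binds when methylated.
Peg3, chr7:6730370-6730669, minus strand: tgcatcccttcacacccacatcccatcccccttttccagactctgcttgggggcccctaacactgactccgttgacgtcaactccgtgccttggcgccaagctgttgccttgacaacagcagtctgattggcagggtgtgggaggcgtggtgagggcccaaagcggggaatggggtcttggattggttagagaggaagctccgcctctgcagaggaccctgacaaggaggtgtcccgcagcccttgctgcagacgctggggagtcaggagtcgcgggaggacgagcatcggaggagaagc
Zim1, chr7:6696383-6696682, minus strand: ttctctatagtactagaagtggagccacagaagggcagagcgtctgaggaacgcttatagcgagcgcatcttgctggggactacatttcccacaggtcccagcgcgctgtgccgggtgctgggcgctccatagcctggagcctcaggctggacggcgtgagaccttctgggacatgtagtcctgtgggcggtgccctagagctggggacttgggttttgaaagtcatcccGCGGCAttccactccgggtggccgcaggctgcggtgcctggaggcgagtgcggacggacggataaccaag
The Peg3 window held 13 CpG dinucleotides and no match, and the Zim1 window held 20 CpG and 1 match, against a median of 7 CpG over all windows of the table.

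In the Kcnq1 domain, next to Igf2 on chromosome 7, the growth-restraining genes moved in a way that depended on both genotype and construct. Cdkn1c, a maternally expressed inhibitor of cyclin-dependent kinases (chr7:143458339-143461050, minus strand), read 26.3, 24.3 and 25.9 CPM in Cas9 control and 31.3, 35.6 and 37.6 CPM in Cas9 Trim71-/- wells. Under Tnrc6a the values were 22.1, 20.6 and 21.0 CPM in control and 16.6, 17.3 and 15.9 CPM in Trim71-/- wells. Trim71-/- wells were thus all higher with Cas9 and all lower with Tnrc6a. The log2 fold changes were 0.44 ± 0.07 (adjusted p = 1.45e-06) and -0.35 ± 0.07 (adjusted p = 0.000147), with an interaction of -0.80 ± 0.10 (adjusted p = 3.53e-07). Cdkn1c was lower with Tnrc6a, at -0.27 ± 0.07 in control and -1.06 ± 0.07 in Trim71-/- cells (adjusted p = 0.00122 and 8.96e-17). The antisense gene Gm44732, not analysed here, overlaps 30.7% of its exon bases.

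Phlda2, which restrains placental growth and was the member of highest RPKM in the domain, had 20.3, 17.6 and 19.7 CPM in Cas9 control and 28.3, 27.6 and 27.5 CPM in Cas9 Trim71-/- wells. In Tnrc6a cells it had 13.9, 12.7 and 14.6 CPM in control and 15.6, 15.1 and 15.2 CPM in Trim71-/- wells. With Cas9 it was higher in Trim71-/- cells (0.53 ± 0.07, adjusted p = 1.06e-07), while the genotype value with Tnrc6a of 0.15 ± 0.08 was not called (adjusted p = 0.13). Tnrc6a wells lay below Cas9 wells in both genotypes, at -0.48 ± 0.08 and -0.86 ± 0.07 (adjusted p = 7.15e-07 and 1.53e-13). The interaction of -0.38 ± 0.11 (adjusted p = 0.0225) was lost without Cas9 control replicate 2 (0.0755) or Tnrc6a control replicate 3 (0.0775).

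Kcnq1ot1, the paternally expressed antisense RNA that silences the domain in cis (chr7:143203458-143296549, minus strand), was low and highest in Tnrc6a control cells. It read 1.96, 2.48 and 1.66 CPM in Cas9 control, 2.85, 2.32 and 3.50 CPM in Cas9 Trim71-/-, 4.80, 5.07 and 4.78 CPM in Tnrc6a control and 3.14, 4.68 and 4.42 CPM in Tnrc6a Trim71-/- wells. The control groups did not overlap, and the RNA was higher there with Tnrc6a by 1.28 ± 0.18 (adjusted p = 3.98e-08), a call kept under every alternative run. The genotype value with Tnrc6a was -0.26 ± 0.16 (adjusted p = 0.192), not called although the wells did not overlap. The genotype call with Cas9 (0.52 ± 0.20, adjusted p = 0.0339) rested on overlapping wells and was lost with limma-voom, with DESeq2, and without any of 4 libraries (0.173 without Cas9 control replicate 3 and 0.177 without Cas9 Trim71-/- replicate 3). The Tnrc6a call in Trim71-/- cells (0.50 ± 0.17, adjusted p = 0.0107) was lost without replicate 2 of either group (0.0806 and 0.0916). Its interaction of -0.78 ± 0.25 (adjusted p = 0.0488) was lost with limma-voom (0.0691), DESeq2 (0.0563) and the replicate block (0.0516), and without any of 9 libraries (0.0522 to 0.162).

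Slc22a18, a maternally expressed transporter gene, read 1.31, 1.37 and 2.36 CPM in Cas9 control and 1.78, 0.951 and 1.84 CPM in Cas9 Trim71-/- wells, against 1.91, 2.59 and 2.16 and 2.81, 2.58 and 3.98 CPM with Tnrc6a. Its wells scattered widely, and only the Tnrc6a rise in Trim71-/- cells was called (1.02 ± 0.23, adjusted p = 0.000212). Ascl2, a transcription factor of trophoblast, fell with genotype under Tnrc6a from 2.17 ± 0.0186 to 1.20 ± 0.190 CPM (-0.84 ± 0.22, adjusted p = 0.00185). With Cas9 it measured 1.66 ± 0.194 and 1.14 ± 0.0901 CPM, without a call (-0.55 ± 0.24, adjusted p = 0.0669). Among further genes of the same chromosome region, Osbpl5, an oxysterol-binding protein gene 185612 bases from Phlda2 that is imprinted in placenta, rose with Tnrc6a in control cells from 3.47 ± 0.212 to 12.6 ± 0.611 CPM (1.86 ± 0.13, adjusted p = 7.2e-17). The trophoblast sum given above is also higher in the Tnrc6a libraries, and its part in these values was not tested.

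Snrpn, on central chromosome 7, had the highest level per length of the set and was lower both in Trim71-/- cells and with Tnrc6a. It encodes a core protein of small nuclear ribonucleoproteins and is expressed from the paternal allele (chr7:59982495-60140219, minus strand). Its level was 193, 195 and 188 CPM in Cas9 control and 130.3, 137 and 139 CPM in Cas9 Trim71-/- wells. With Tnrc6a it was 97.6, 98.3 and 97.9 CPM in control and 64.6, 67.3 and 70.1 CPM in Trim71-/- wells, and no groups overlapped. The genotype difference was -0.51 ± 0.04 with Cas9 and -0.54 ± 0.04 with Tnrc6a (adjusted p = 4.39e-14 and 2.63e-14). The difference by Tnrc6a was -0.97 ± 0.04 in control and -1.01 ± 0.04 in Trim71-/- cells (adjusted p = 5.5e-24 and 7.96e-24). The interaction was -0.03 ± 0.06 and was not called (adjusted p = 0.822). Snurf, which shares the Snrpn transcript, read 31.7 ± 2.75, 22.3 ± 0.679, 15.7 ± 0.348 and 10.7 ± 0.894 CPM by group, and the long noncoding RNA Snhg14 read 32.7 ± 1.22, 23.6 ± 2.29, 18.6 ± 0.342 and 14.7 ± 1.16 CPM. Since Snrpn shares 27.3% of its exon bases with Gm38393 and 10% with Snurf on the same strand, the share of reads given to each is uncertain.

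Magel2 and Ndn, intronless genes of the MAGE family further along the paternal domain, rose with Tnrc6a in control cells, where Snrpn fell. Magel2 read 4.26, 2.68 and 1.78 CPM in Cas9 control and 1.48, 1.28 and 1.48 CPM in Cas9 Trim71-/- wells, with control replicate 1 far above the other control wells. With Tnrc6a it read 5.22, 4.96 and 4.54 CPM in control and 2.38, 1.58 and 2.25 CPM in Trim71-/- wells. It fell with genotype by 1.05 (SE 0.24, adjusted p = 0.000523) with Cas9 and by 1.24 (SE 0.20, adjusted p = 3.54e-06) with Tnrc6a on the log2 scale. Without Cas9 control replicate 1 the first value was -0.63 (adjusted p = 0.0424). Magel2 rose with Tnrc6a in control cells by 0.75 ± 0.19 (adjusted p = 0.00106), with 1.16 and 0.47 when Cas9 control replicates 1 and 3 were left out in turn. Ndn was higher with Tnrc6a in control (0.50 ± 0.07) and Trim71-/- cells (0.29 ± 0.07, adjusted p = 1.28e-07 and 0.000754), and no genotype difference was called. Ube3a, a ubiquitin ligase gene that is imprinted in neurons, was called in none of the 4 comparisons, with group means of 125 ± 4.75, 125 ± 6.55, 121 ± 8.73 and 128 ± 5.85 CPM.

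Gnas, on distal chromosome 2, encodes the stimulatory G protein alpha subunit from a complex locus of tissue-dependent imprinting. Its wells read 164, 176 and 158 CPM in Cas9 control, 146, 155 and 148 CPM in Cas9 Trim71-/-, 154, 161 and 163 CPM in Tnrc6a control and 139, 133 and 138 CPM in Tnrc6a Trim71-/- cells. Trim71-/- wells lay slightly below control wells, at -0.15 ± 0.04 with Cas9 (adjusted p = 0.00375) and -0.22 ± 0.04 with Tnrc6a (adjusted p = 2.36e-05). The Cas9 call was lost without Cas9 control replicate 2 (-0.11, adjusted p = 0.0684). The gene-level count sums transcripts from all Gnas promoters. The antisense RNA Nespas, which overlaps 988 exon bases of Gnas, had group means of 1.71 ± 0.185, 1.53 ± 0.327, 2.00 ± 0.250 and 1.38 ± 0.413 CPM and was not called in any of the 5 contrasts.

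Outside these domains, Grb10, Mest and Peg10 passed 2-fold for genotype with Cas9. Grb10, on chromosome 11 (chr11:11930508-12038683, minus strand), encodes an adaptor that inhibits insulin and IGF receptor signalling and is expressed from the maternal allele in most tissues. It read 433, 455 and 445 CPM in Cas9 control and 188, 197 and 177 CPM in Cas9 Trim71-/- wells. In Tnrc6a cells the level was 169, 179.9 and 189 CPM in control and 108, 106 and 106 CPM in Trim71-/- wells, so the Cas9 control wells stood apart above all others. The genotype difference was -1.24 ± 0.04 with Cas9 (adjusted p = 7.03e-27) and -0.75 ± 0.04 with Tnrc6a (adjusted p = 5.89e-19). The difference by Tnrc6a was -1.31 ± 0.04 in control and -0.81 ± 0.04 in Trim71-/- cells (adjusted p = 1.45e-28 and 1.2e-20). The genotype effect was smaller with Tnrc6a, with an interaction of 0.50 ± 0.06 (adjusted p = 6.47e-08). Its neighbours Ddc and Cobl, which are imprinted in some tissues, were also lower with Tnrc6a in control cells (-1.33 ± 0.07 and -1.34 ± 0.04, adjusted p = 1.1e-20 and 3.11e-27). For genotype under Cas9, Cobl rose (0.30 ± 0.04, adjusted p = 9.24e-08) and Ddc was not called (-0.09 ± 0.06, adjusted p = 0.301).

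Mest, on chromosome 6 (chr6:30723547-30748465, plus strand), is a paternally expressed gene of the hydrolase fold family, and it was higher in Trim71-/- cells. It read 53.2, 57.4 and 54.8 CPM in Cas9 control and 112, 112 and 109.9 CPM in Cas9 Trim71-/- wells. Tnrc6a wells gave 39.6, 44.5 and 45.0 CPM in control and 82.8, 81.3 and 84.8 CPM in Trim71-/- wells, and the genotypes did not overlap. It rose with genotype by 1.02 ± 0.05 with Cas9 (adjusted p = 2.53e-21) and 0.95 ± 0.05 with Tnrc6a (adjusted p = 2.97e-20), and it fell with Tnrc6a by 0.36 in control and 0.42 in Trim71-/- cells on the log2 scale (adjusted p = 5.94e-08 and 1.11e-10). Copg2 overlaps 23.1% of its exon bases on the opposite strand and was itself higher with genotype by 0.25 ± 0.05 with Cas9 and 0.42 ± 0.05 with Tnrc6a (adjusted p = 2.8e-05 and 7.23e-10).

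Peg10, a paternally expressed gene derived from a retrotransposon that placenta requires (chr6:4747306-4760517, plus strand), read 226, 252 and 250.1 CPM in Cas9 control and 114, 114 and 121 CPM in Cas9 Trim71-/- wells. In Tnrc6a cells it read 193, 209 and 222 CPM in control and 123, 119 and 133 CPM in Trim71-/- wells. Trim71-/- wells lay far below control wells in each setting. The log2 fold change was -1.06 ± 0.05 with Cas9 (adjusted p = 3.42e-18) and -0.74 ± 0.05 with Tnrc6a (adjusted p = 2.37e-14), with an interaction of 0.32 ± 0.07 (adjusted p = 0.00239). Sgce, the epsilon-sarcoglycan gene that starts beside Peg10 on the other strand and is also paternally expressed, read 1.73, 2.13 and 2.13 CPM in Cas9 control, 1.24, 2.07 and 2.12 CPM in Cas9 Trim71-/-, 4.45, 4.64 and 3.85 CPM in Tnrc6a control and 2.85, 3.24 and 3.04 CPM in Tnrc6a Trim71-/- wells. Its Tnrc6a wells were all above its Cas9 wells, by 1.12 ± 0.18 in control and 0.78 ± 0.19 in Trim71-/- cells (adjusted p = 9.54e-07 and 0.000592). Peg10 gave -0.22 ± 0.05 (adjusted p = 0.00015) and 0.10 ± 0.05 (adjusted p = 0.0797) there. That second Peg10 value was called in some alternative fits, such as upper-quartile factors (0.022), relative log expression factors (0.0452) and the replicate block (0.0438). The genotype fall of Sgce with Tnrc6a (-0.50 ± 0.17, adjusted p = 0.0145) was lost without Tnrc6a control replicate 2 (0.0517) or Tnrc6a Trim71-/- replicate 1 (0.0609). Ppp1r9a, a neuronal actin-binding protein gene of the same cluster, was lower with Tnrc6a, at -0.82 ± 0.08 in control and -0.54 ± 0.08 in Trim71-/- cells (adjusted p = 2.33e-12 and 7.55e-08). Asb4, of the same cluster, was called in no comparison, on 3 to 15 reads a library.

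The remaining members changed by less than 1 on the log2 scale. Slc38a4, on chromosome 15, read 212, 206 and 213 CPM in Cas9 control and 202, 194 and 184 CPM in Cas9 Trim71-/- wells, then 212, 228 and 227 CPM in Tnrc6a control and 217, 224 and 229.9 CPM in Tnrc6a Trim71-/- wells. The groups lay close together, and Cas9 Trim71-/- wells were the lowest. Slc38a4 was higher with Tnrc6a in Trim71-/- cells by 0.21 ± 0.04 (adjusted p = 1.61e-05). Its genotype difference with Cas9 was -0.12 ± 0.04 (adjusted p = 0.0149), which was lost on leaving out replicate 3 of the Cas9 control (0.0596) or of the Cas9 Trim71-/- group (0.0914). Impact, an inhibitor of the translation kinase Gcn2, had group means of 119.9 ± 6.42, 96.0 ± 3.00, 91.2 ± 4.25 and 101 ± 1.78 CPM. Its genotype effect was -0.32 ± 0.04 with Cas9 and 0.15 ± 0.04 with Tnrc6a (adjusted p = 1.59e-07 and 0.0069), with an interaction of 0.47 ± 0.06 (adjusted p = 1.14e-06), and the Tnrc6a call was lost without Tnrc6a control replicate 1 (0.167) or Tnrc6a Trim71-/- replicate 2 (0.0618).

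Mcts2, a paternally expressed retrogene inside an intron of H13, and H13 itself, a maternally expressed signal peptide peptidase gene, went in opposite directions with Tnrc6a. Mcts2 fell by 0.29 in control and 0.40 in Trim71-/- cells, and H13 rose by 0.35 ± 0.06 and 0.32 ± 0.06. The Mcts2 value in control cells was -0.18 without Tnrc6a control replicate 3, and its genotype rise with Tnrc6a (0.25 ± 0.08, adjusted p = 0.00717) was lost without the same library (0.155). Igf2r, which clears Igf2 from the cell surface, rose with Tnrc6a by 0.45 ± 0.06 and 0.53 ± 0.06 (adjusted p = 2.88e-08 and 1.75e-09). Its genotype value with Cas9 was -0.18 ± 0.06 (adjusted p = 0.0142), lost on leaving out Cas9 control replicates 2 or 3, or replicate 1 of Cas9 Trim71-/- cells (0.0604 to 0.0796). Zrsr1, a splicing factor retrogene, rose with Tnrc6a by 0.27 ± 0.07 and 0.30 ± 0.07 (adjusted p = 0.00101 and 0.00023). Trappc9, a vesicle trafficking gene, fell with it by 0.55 and 0.53 on the log2 scale (adjusted p = 1.84e-08 and 2.13e-08). Nap1l5, a small intronless gene, had a genotype value of 0.82 ± 0.34 with Tnrc6a at an adjusted p of 0.0491, on 12 to 34 reads in those libraries, and that call was lost in 4 of the alternative fits and without any of 4 libraries (up to 0.227, without Tnrc6a control replicate 3). Inpp5f, an inositol phosphatase gene of which a brain variant is imprinted, had -0.21 ± 0.07 with genotype under Cas9 (adjusted p = 0.0137), lost without Cas9 Trim71-/- replicate 3 (0.137).

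**Figure D4:**
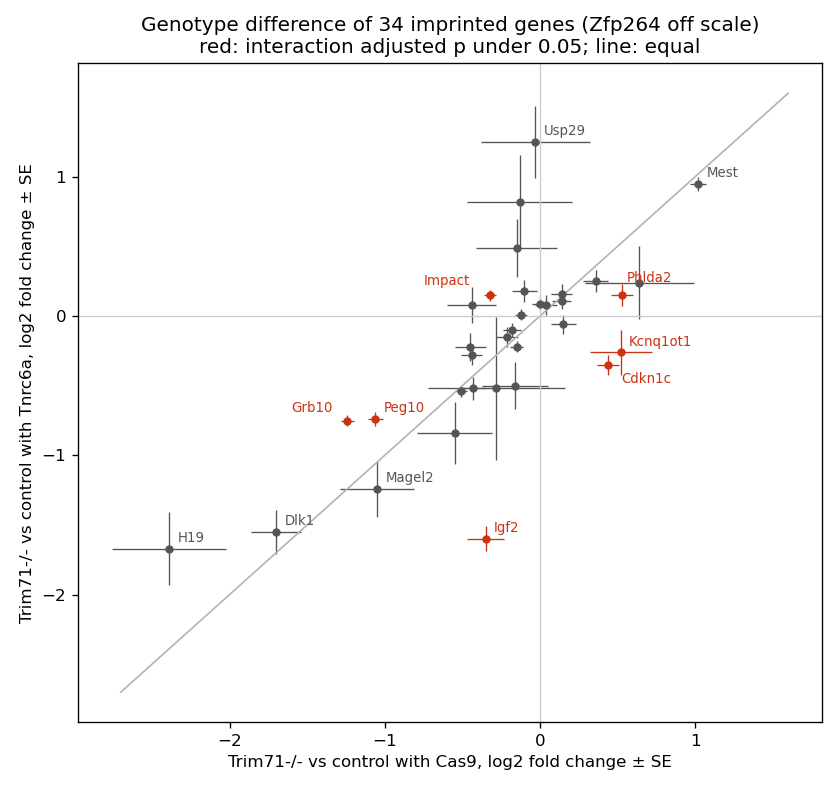
Log2 fold change of Trim71-/- against control with Cas9 (x axis) and with Tnrc6a (y axis) for 34 imprinted genes, with SE bars. Zfp264, at 4.21 and 4.34, is off the scale. Red points have an interaction adjusted p under 0.05, and Igf2 and Cdkn1c lie furthest below the line of equal effects among them.

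Members expressed from the paternal and from the maternal allele moved in both directions. Of 18 genes known as paternally expressed, 4 were called higher and 9 lower with genotype under Cas9, and 6 and 7 under Tnrc6a, or 72.2% called in each, beside 36.1% and 39.1% of all tested genes. Of 13 known as maternally expressed, 2 were called higher and 4 lower under Cas9, and the 4 called under Tnrc6a were all lower, or 46.2% and 30.8% called. With Tnrc6a in control cells the paternally expressed genes split into 7 higher and 5 lower, and the maternally expressed ones into 4 and 6, or 66.7% and 76.9% called beside 63.5% of all genes. In Trim71-/- cells Tnrc6a gave 8 higher and 4 lower among the paternally expressed genes and 5 and 6 among the maternally expressed ones, or 66.7% and 84.6% beside 62.9%. The remaining 4 members are imprinted by tissue or by transcript variant.

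Further imprinted genes outside the 42 were called as well. Of 46 listed, 34 were tested under their symbol, and 8 were higher and 9 lower with genotype under Cas9, or 50.0% called beside 36.1% of all genes. With Tnrc6a, 10 were higher and 8 lower, or 52.9% beside 39.1%. The X-linked genes Xlr3b, Xlr4b and Xlr4c rose furthest. Xlr3b went from 1.36 ± 0.0529 to 6.41 ± 0.305 CPM with Cas9 (2.24 ± 0.18, adjusted p = 5.84e-14) and from 1.41 ± 0.478 to 5.56 ± 0.211 CPM with Tnrc6a (1.97 ± 0.17, adjusted p = 6.42e-13). Xlr4b gave 2.88 ± 0.31 and 2.75 ± 0.29, and Xlr4c gave 2.90 ± 0.37 and 3.08 ± 0.36, with no Tnrc6a effect called for any of the 3. These are members of near-identical families, so their read assignment is uncertain. Sfmbt2, a Polycomb gene imprinted in early embryo and placenta, fell with genotype by 0.74 with Cas9 and 1.24 with Tnrc6a on the log2 scale (adjusted p = 1.19e-08 and 2.63e-17) and rose with Tnrc6a in control cells by 1.16 ± 0.08 (adjusted p = 8.22e-17). Of 115 tested genes within 200 kb of an imprinted gene that are not members, 39.1% were called for genotype under Cas9 and 44.3% under Tnrc6a, against 36.1% and 39.1% of all genes.

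Genes of imprint control and DNA methylation changed too. The list holds genes that maintain imprints beside others, such as the de novo methylation genes Dnmt3a, Dnmt3b and Dnmt3l and the Tet genes. Of 30 listed, all tested, 4 were higher and 14 lower with genotype under Cas9, 6 and 13 under Tnrc6a, 6 and 17 with Tnrc6a in control cells and 4 and 18 with Tnrc6a in Trim71-/- cells. That is 60.0%, 63.3%, 76.7% and 73.3% called, beside 36.1%, 39.1%, 63.5% and 62.9% of all tested genes. Dnmt3l, the cofactor of de novo DNA methylation, fell with genotype from 251 ± 1.32 to 86.3 ± 6.51 CPM with Cas9 (-1.54 ± 0.04, adjusted p = 2.46e-29) and from 225 ± 2.71 to 74.0 ± 2.99 CPM with Tnrc6a (-1.60 ± 0.04, adjusted p = 4.44e-30). Dnmt3a, a de novo methyltransferase, fell from 206 ± 1.80 to 94.1 ± 8.83 CPM with Cas9 (-1.13 ± 0.05, adjusted p = 8.5e-24). Zfp57 rose with genotype by 0.49 ± 0.04 with Cas9 and 0.77 ± 0.04 with Tnrc6a (adjusted p = 3.31e-15 and 9.47e-22) and fell with Tnrc6a by 0.82 in control cells on the log2 scale (adjusted p = 3.43e-23). Trim28, the corepressor that ZFP57 binds, fell with Tnrc6a by 0.55 in control and 0.68 in Trim71-/- cells (adjusted p = 2.58e-18 and 2.11e-21). Dnmt1 and Uhrf1, which copy methylation after replication, fell with Tnrc6a in control cells by 0.32 and 0.68 (adjusted p = 3.43e-10 and 1.86e-20). For genotype under Cas9, Dnmt1, Uhrf1 and Trim28 moved little, at -0.12 ± 0.04, 0.00 ± 0.04 and -0.09 ± 0.03 (adjusted p = 0.0103, 0.999 and 0.0254). Methylation was not measured in these libraries.

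Since Zfp57 itself differed between the groups, promoter windows of the members were searched for TGCCGC on both strands. Of the 35 members, 28 had a window in the RefSeq table, and 8 of them held the hexamer: Igf2, Meg3, Zim1, Snrpn, Grb10, Mest, Nap1l5 and Mcts2. In all, 13.1% of 27025 genes held it in a window. The YY1 motif GCCATNTT, searched likewise, was in 2 of the 28 members (Ube3a and Slc38a4) and in 6.96% of all genes. The search covered these windows only, and which of them overlap an imprinting control region was not examined. Of these 8 genes, Igf2, Snrpn, Grb10 and Meg3 were called lower and Mest and Mcts2 higher in both genotype comparisons. Among all 35 members, 10 were called lower and 3 higher in both, and the share of all genes called alike in both is not given here. A link between the hexamer and these changes was not tested. The windows of Grb10, Meg3 and Mest are shown as examples, chosen after their values were seen, again with GCGGCA in capitals.
Grb10, chr11:12037371-12037670, minus strand: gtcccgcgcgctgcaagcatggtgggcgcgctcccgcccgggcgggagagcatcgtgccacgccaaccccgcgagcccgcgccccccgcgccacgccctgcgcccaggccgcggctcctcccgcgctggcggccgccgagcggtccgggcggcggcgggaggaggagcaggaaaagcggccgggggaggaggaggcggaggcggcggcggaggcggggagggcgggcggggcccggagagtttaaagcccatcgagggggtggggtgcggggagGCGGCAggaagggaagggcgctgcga
Meg3, chr12:109540746-109541045, plus strand: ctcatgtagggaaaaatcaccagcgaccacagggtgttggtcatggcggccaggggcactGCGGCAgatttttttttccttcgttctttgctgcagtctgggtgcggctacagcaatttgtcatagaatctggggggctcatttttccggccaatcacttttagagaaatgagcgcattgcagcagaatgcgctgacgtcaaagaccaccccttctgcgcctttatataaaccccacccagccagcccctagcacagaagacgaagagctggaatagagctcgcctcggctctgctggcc
Mest, chr6:30737800-30738099, plus strand: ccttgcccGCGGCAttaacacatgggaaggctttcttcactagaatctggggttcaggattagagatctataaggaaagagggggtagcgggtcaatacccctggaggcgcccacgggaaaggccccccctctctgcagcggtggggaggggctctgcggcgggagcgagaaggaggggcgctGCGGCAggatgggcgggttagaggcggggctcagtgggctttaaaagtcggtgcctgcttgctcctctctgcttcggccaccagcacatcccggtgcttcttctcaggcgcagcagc
The Grb10 window held 45 CpG dinucleotides and 1 match, the Meg3 window 13 CpG and 1 match, and the Mest window 17 CpG and 2 matches.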

How the data were processed

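Total RNA of 12 wells of mouse embryonic stem cells was sequenced, with 4 groups of 3 assigned by title and overexpression tag. Per the labels' protocols, RNA came from a single-cell purification kit and libraries from a stranded total RNA kit. The submitters' processing notes name STAR 2.7.3a and bcl2fastq 2.20. For the read counting, neither program nor strand setting was stated. The deposited table held unnormalised gene counts beside RPKM values for 20529 genes. Gene coordinates come from the GRCm38 annotation (GENCODE M21). RPKM was used for levels between genes only.

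Counts were tested with edgeR 4.0.16 in R 4.3.3 (filterByExpr, TMM factors, robust quasi-likelihood fit of 4 group means over all 12 libraries, two-sided), with Benjamini-Hochberg adjustment over 20486 tested genes and a threshold of 0.05. SE is the absolute log2 fold change divided by the square root of F. CPM values use TMM factors and are given per well or as mean ± SD (n = 3). The model was also run on counts simulated from its own fitted spread, with few genes changed. That run cannot check the spread itself, or data in which many genes differ. Total counts per library set the precision, so low genes carry wide errors.

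The members were chosen by name and not by their values. Even so, the members, lists and tests were set with earlier results of these data known. Values in every library are given for members past 2-fold and the threshold in any pair of groups, for an interaction of that size, and for the member of highest RPKM of each domain, 21 genes in all. Alternatives were other scaling factors, other filters, limma-voom (limma 3.58.1), DESeq2 1.42.0, a replicate block, fits of the compared groups alone, a 2-fold minimum and each library left out. No pair of libraries of the same group matched within sampling noise, and pairs from different groups were not compared in this way. Promoter sequences are from RefSeq (GRCm38.p6). The most similar genes were ranked by Pearson correlation of log2 CPM.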

Additional observations from a re-analysis of the deposited data

Results flagged for a closer look

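For 7 of the 35 imprinted genes the genotype effect differed between the Tnrc6a and Cas9 cells. The measure was the interaction term of edgeR's quasi-likelihood test, in log2 units of the Tnrc6a effect minus the Cas9 effect. Rian, described beside the 35, was called as well, at 0.37 ± 0.06 (adjusted p = 1.66e-05). Igf2 gave -1.25, with a fall in Trim71-/- cells that was larger with Tnrc6a. Cdkn1c gave -0.80, with Trim71-/- wells higher with Cas9 in 3 of 3 and lower with Tnrc6a in 3 of 3. Kcnq1ot1 gave -0.78 and Phlda2 -0.38. Grb10 gave 0.50 and Peg10 0.32, both with a smaller fall under Tnrc6a, and Impact gave 0.47, with effects of opposite sign. Adjusted p values were 6.92e-08 for Igf2, 3.53e-07 for Cdkn1c, 6.47e-08 for Grb10, 0.00239 for Peg10, 1.14e-06 for Impact, 0.0225 for Phlda2 and 0.0488 for Kcnq1ot1.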

How the results depend on the processing

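No result called in the main fit changed direction under any alternative run. For results without a call there, a change of direction was not recorded. With a 2-fold minimum the counts of imprinted genes called higher and lower became 2 and 5 for genotype with Cas9, 2 and 4 with Tnrc6a, 5 and 1 for Tnrc6a in control cells, 4 and 2 in Trim71-/- cells, and 0 and 1 for the interaction. These are the edgeR calls of the main fit restricted by size, so the construction itself lowers them, and the unrestricted interaction counts were 3 and 4. Leaving out each library in turn gave 5 to 6 higher and 12 to 15 lower for genotype with Cas9, 4 to 6 and 12 to 14 with Tnrc6a, 11 to 12 and 12 to 13 for Tnrc6a in control cells, 12 to 14 and 10 to 12 in Trim71-/- cells, and 3 to 4 and 2 to 4 for the interaction. Over all alternatives, 2661 results kept their side of the threshold, 62 lost a call and 34 gained one. The split of interaction calls over all genes moved with scaling: 67.5% were positive, against 55.6% with relative log expression factors and 55.4% with DESeq2. Same-numbered wells did not deviate together, with correlations from -0.232 to 0.145 over 18 pairs and 2 of them over 0.1, so the numbers are only names. With the replicate block, 6 genes were higher and 16 lower for genotype with Cas9, 6 and 13 with Tnrc6a, 11 and 12 for Tnrc6a in control cells, 15 and 12 in Trim71-/- cells, and 3 and 3 for the interaction. Depth limits H19, Zfp264, Zim1, Usp29, Nap1l5 and Asb4 most.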
